A study of Saccharomyces cerevisiae with 56 samples.

Results

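The C construct carries the third PDZ domain of PSD-95 with an extension that the labels name C, and its variants were scored in yeast for abundance and for binding. Variants with 1 or 2 amino acid substitutions that had a score in both assays were matched by protein sequence, which gave 45749 variants, 1156 single and 44593 double substitutions. They were among 156110 variants matched in this way over the 4 constructs of the study, in a table of 384696 entries. A further 2830 single or double substitutions of the C construct had an abundance score only and 1461 a binding score only, and they are not used here. The study compared the domain alone (PDZ3), with the extension N, with C and with both (NC), all in Saccharomyces cerevisiae strain BY4742. Each assay of the C construct had 3 input and 3 output libraries, 12 of the series' 56 in all, and 1 wild type library. Per the labels, cultures grown at 30 °C were put into 400 mL with methotrexate at an optical density of 0.05 and competed over 5 generations. No source used here gives the sequence of the extension or names the ligand.

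A PDZ domain is a small fold of strands and helices that holds the C-terminal end of a partner protein in a groove between its strand 2 and helix 2. A loop before strand 2, with the residues glycine, leucine, glycine and phenylalanine, binds the partner's terminal carboxylate through backbone amides, and strand 2 pairs with the partner as an added strand. PSD-95 is a scaffold protein of excitatory synapses. In abundancePCA and bindingPCA, fragments of a methotrexate-resistant reductase come together when the domain is present, or when it meets its partner, and growth in methotrexate reads the result. A substitution that reduces the amount of folded domain can lower both readouts, and a substitution in the groove can lower binding alone, which is the question the comparison of the assays addresses.

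Scores were put on a common scale on which the wild type of each assay is 0 and the median single nonsense variant is -1, and the difference given below is scaled binding minus scaled abundance. A score unit on this scale was 1.23 units of the deposited score in abundance and 1.11 in binding. The deposited values merge the cultures, so no value per culture can be shown, the read depth is unknown, and tests rest on the errors the authors give. The median scaled error of a single substitution was 0.0187 in abundance and 0.00959 in binding, and that of a double substitution 0.137 and 0.0699. Synonymous variants, which leave the protein unchanged, had mean scaled scores of 0.0104 (abundance) and 0.0294 (binding). Of them 19 of 286 lay above the wild type past the test in abundance and 33 of 254 in binding, against 0 and 4 below it, so counts of variants above the wild type are less certain than counts below. At a deposited score of 0, close to the wild type, the fitted growth rate was 0.132 in the abundance assay and 0.202 in the binding assay (time unit not stated). Equal scaled scores therefore mean equal shares of each assay's range between wild type and nonsense, not equal amounts of protein.

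More variants of the C construct lay below the wild type in binding than in abundance, where the errors were larger. Over all variants, 37979 lay below the wild type in binding, 83.0% of those tested, and 29510 (64.5%) in abundance. Above the wild type lay 457 variants in binding (0.999%) and 213 in abundance (0.466%). The difference itself passed the test for 6864 variants in the direction of lower binding (15.0%) and for 3894 in the direction of higher binding (8.51%), by a two-sided normal test of the difference over its error with Benjamini-Hochberg adjustment over all 45749 variants and a threshold of 0.05. Among the single substitutions 398 had binding lower than abundance, 243 had it higher and 515 passed in neither direction. Among the doubles these were 6466 and 3651. The median difference was near 0 in both groups, at -0.0116 for singles and 0.0148 for doubles, while 98 singles lay below -0.5 and 16 above 0.5. On the deposited growth rate without scaling, 12015 variants were lower and 2477 higher.

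Sorted by each assay against the wild type, 527 single substitutions were lower in both and 189 passed in neither. A set of 229 was lower in binding with no call in abundance, with a median abundance of -0.0108 and a median binding of -0.134, and 140 of them also passed the test of the difference. Lower abundance with binding above the wild type was seen in 30 singles, with medians of -0.117 and 0.0439. The 32 singles with abundance above -0.1 and binding below -0.8 came from 8 of the 61 positions: 10 from G329, 10 from H372, 4 from I327, 3 from V328, 2 from A375 and 1 each from L323, G330 and E331. The opposite corner, abundance below -0.6 with binding above -0.3, held 12 singles, of which 5 were at G335 and 2 at G364. These limits were set after the values were seen. The Pearson correlation between the assays was 0.655 over the singles and 0.664 over the doubles, across variants that share libraries and wild type.

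**Figure D1:**
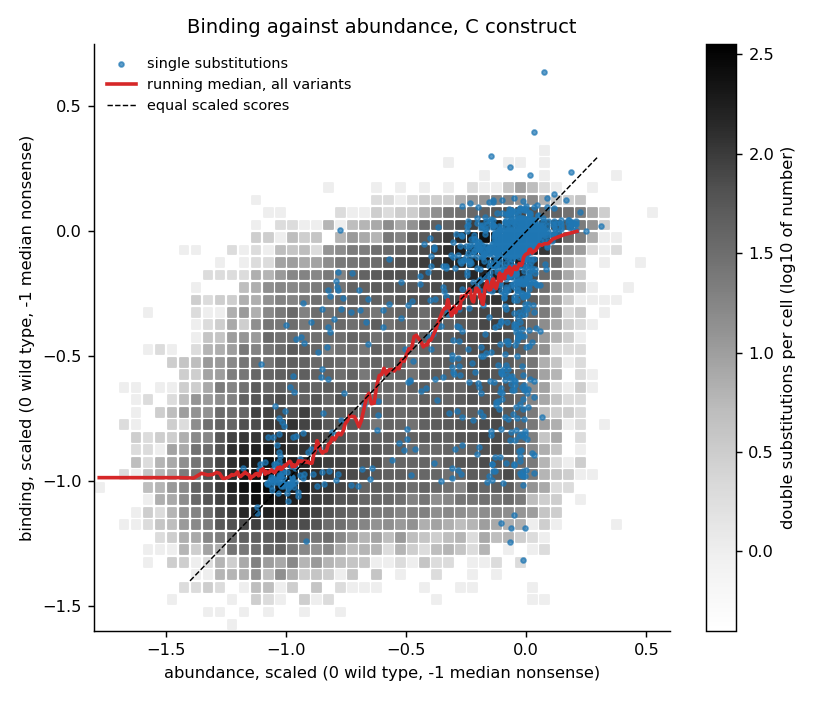
Scaled binding against scaled abundance in the C construct; grey cells count double substitutions (log10 of the number), blue points are the 1156 single substitutions, the red line is the running median of all variants along abundance and the dashed line marks equal scaled scores. The running median follows the dashed line between both ends, and blue points drop from an abundance near 0 to a binding near -1.

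The doubles show the level of binding along the abundance range. Doubles with abundance above 0 had a median binding of -0.0609, and 14.8% of these 2997 doubles had binding below -0.5. In the bin from -0.2 to 0 the median was -0.194 over 9836 doubles, from -0.4 to -0.2 it was -0.30, from -0.6 to -0.4 it was -0.497 and from -0.8 to -0.6 it was -0.735. Below -1 in abundance the median was -0.968, close to the nonsense level, over 11172 doubles, of which 94.9% had binding below -0.5. At an abundance between -0.2 and 0 the doubles spread from -0.867 (the lowest 10%) to 0.00470 (the highest 10%), so a similar measured abundance went with a wide range of binding. The median abundance error of a double, 0.137, is large beside this bin. Singles in the same bin, measured with smaller errors, spread from -0.636 to 0.0252.

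By position, the mean over 18 to 19 substitutions was tested for 61 of the 66 residues from R312 to I377. G319, D332, G351, G356 and N363 are not analysed here. Binding was lower than abundance at 27 positions (44.3%) and higher at 25 (41.0%), and 9 passed in neither direction. The test of a position is fine-grained, since it rests on the authors' errors. Its SE and p-value, here and between constructs, do not measure the spread over substitutions. Most of these differences were small: 34 of the 61 means lay within 0.1 of 0, 13 lay below -0.2 and 8 above 0.1. On the growth rate without scaling 38 positions were lower and 14 higher, and against the running median of binding at the same abundance 18 were lower and 41 higher. That running median was taken over all variants, most of them doubles. At an abundance from -0.2 to 0 the median binding was -0.0675 for singles and -0.194 for doubles. Positive values of single substitutions against this median are therefore less certain. The lower quartile of the main means was -0.152 and the upper 0.0558. At 7 positions every substitution had lower binding than abundance, and at 1 position, G335, every substitution had it higher.

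**Figure D2:**
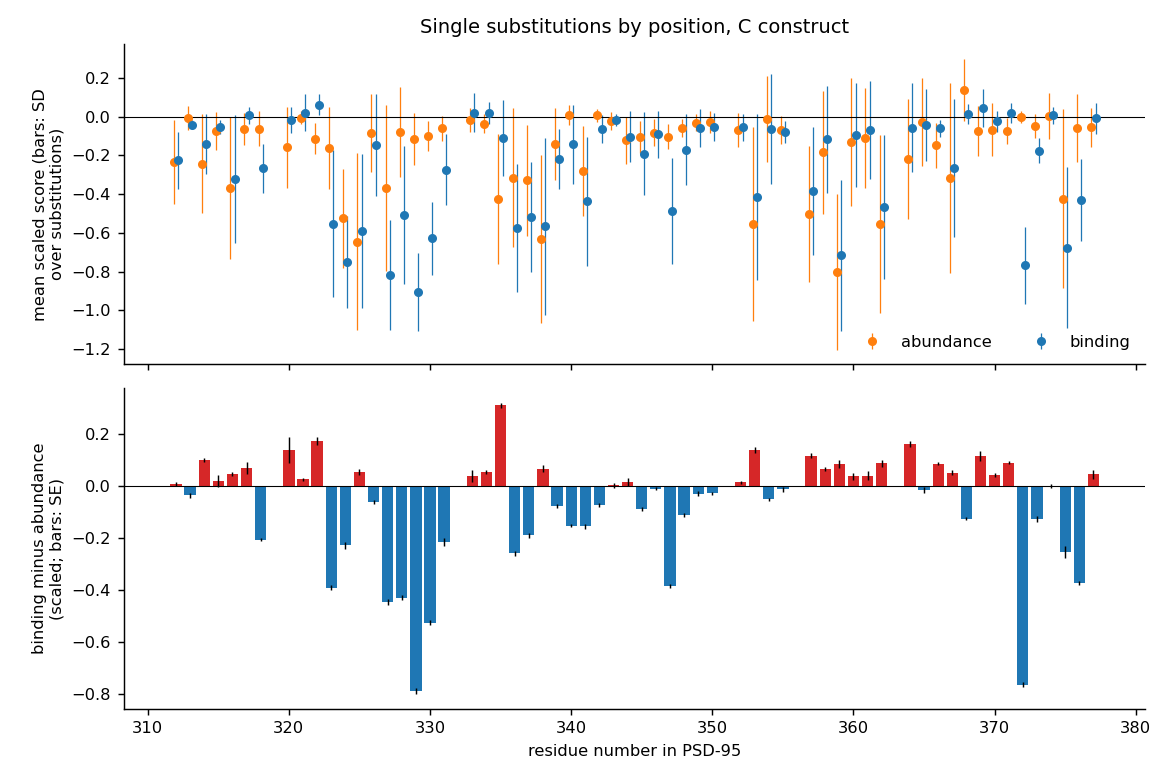
Upper panel, mean scaled abundance (orange) and binding (blue) of the single substitutions at each residue of the C construct, with bars for the SD over 18 to 19 substitutions; lower panel, binding minus abundance with its SE. The difference lies below -0.2 at R318, L323 and G324, from I327 to E331, and at I336, A347, H372, A375 and A376, and G335 stands highest at 0.313.

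Positions of strand 2 separated the assays most. All 6 of its positions (N326 to E331) had lower binding, with a median difference of -0.439 beside 0.0024 over all positions, and 87 of its 113 single substitutions passed in that direction beside 398 of 1156 over all positions. Their median abundance was -0.0935 and their median binding -0.569. Of the 9 peptide-contacting positions (L323, G324, F325, N326, I327, V328, S339, H372 and A376) 8 were lower and 1, F325, was higher, with a median of -0.375. Over all positions 27 of 61 were lower and 25 higher. In strand 3, 6 of 7 positions were lower with a median of -0.152. The counts of other stretches were nearer to that share: in helix 2, 4 of 7 were lower and 2 higher with a median of -0.126, and around helix 1, 5 of 9 tested positions were lower and 1 higher with a median of -0.0266. The carboxylate-binding loop was divided, with 3 lower and 4 higher of 7 tested positions.

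Around strand 4, beside 41.0% higher over all positions, 7 of 9 tested positions had higher binding than abundance and 1 lower, with a median of 0.0665. Before helix 2 these were 5 and 1 of 7 (median 0.0530), in strand 1 they were 3 and 1 of 6 (median 0.0337), near the share over all positions for the higher ones, and in the strand 2-3 loop 2 and 0 of 3 (median 0.0558). Grouped by the wild-type residue, 4 of 9 tested glycine positions were lower and 3 higher, with both ends of the whole range among them, G329 and G335. Charged positions had 7 lower and 4 higher of 13, polar positions 4 and 7 of 12, and aliphatic or aromatic positions 12 and 11 of 27, the last at the same shares as all positions (44.3% lower and 41.0% higher).

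In strand 2, whose backbone pairs with the partner, G329 had the lowest difference of all positions. Its 18 substitutions had a mean abundance of -0.115 ± 0.135 (SD over substitutions) and a mean binding of -0.907 ± 0.201, a difference of -0.791 ± 0.0114 (SE). All 18 had lower binding than abundance past the test. G329D (abundance -0.0619, binding -1.19), G329V (-0.0503 and -1.14), G329P (-0.0153 and -0.981) and G329A (0.0332 and -0.970) were among the 10 lowest single differences. The 46 doubles with G329D had a median binding of -0.939. Even the small change to alanine left abundance near the wild type and binding near the nonsense level. G329S was the mildest at -0.0175 in abundance and -0.250 in binding.

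The neighbours of G329 differed in which substitutions they accepted. At G330 all 19 substitutions had lower binding past the test, with means of -0.102 ± 0.0782 in abundance and -0.628 ± 0.189 in binding, from G330K (-0.0482 and -0.835) to G330P (-0.0330 and -0.0760). Proline was thus the mildest substitution there. At V328 the means were -0.0788 ± 0.231 and -0.509 ± 0.356, and 16 of 19 were lower. V328D lost all binding (-0.0688 in abundance and -1.25 in binding), V328G scored -0.0142 and -0.960, while V328I (-0.0185 and 0.0548) and V328M (0.0222 and -0.0299) stayed near the wild type. The 42 doubles with V328D had a median binding of -0.969. V328P had low scores in both assays (-1.01 and -0.963). At E331, named after its values were seen, E331P (-0.0297 and -0.819) and E331K (0.0176 and -0.593) were lowest, and E331D, which keeps the acidic side chain, had a binding of 0.0601.

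I327 lines the hydrophobic pocket that takes the partner's last side chain, and its substitutions fell into different classes. I327H, I327W and I327T left abundance at -0.0133, -0.00564 and -0.000141 and took binding to -1.02, -0.979 and -0.957. The closest relatives of isoleucine lost part of the binding: I327V had abundance -0.00950 and binding -0.312, I327L -0.0221 and -0.421, I327M -0.00903 and -0.419, and I327F 0.0102 and -0.202. The charged residues, glycine and proline lowered both assays, as in I327D (-0.995 and -1.05) and I327G (-0.974 and -0.984). Over all 19 the means were -0.369 ± 0.429 and -0.817 ± 0.285, and all 19 lay below the wild type in binding past the test. N326 stood apart in strand 2 with a small mean difference of -0.0613 ± 0.00688 (SE from the authors' errors, adjusted p = 8.97e-19). Over its 19 substitutions the SD was 0.197, 8 lay below 0 and the median was 0.000756. Against the running median the N326 difference was 0.0327. N326E alone (0.0308 and -0.664) reached a difference of -0.695, and N326V (-0.0759 and 0.0723) was the highest.

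Helix 2 forms the other wall of the groove, and H372 at its start is the histidine known to contact a partner side chain upstream of the last residue. Its 19 substitutions had a mean abundance close to the wild type (-0.00118 ± 0.0309) and a mean binding of -0.767 ± 0.199, a difference of -0.766 ± 0.00972. All 19 were lower in binding than in abundance past the test, while 2 were below and 3 above the wild type in abundance. H372Y was the lowest single substitution of the whole set at a difference of -1.30 ± 0.0498, with abundance -0.0138 and binding -1.32. This binding, with an error of 0.0457, lies below the median nonsense level. The 101 doubles with H372Y had a median binding of -0.963. H372Q was the mildest (0.0274 and -0.295), and between them lay H372A (0.00349 and -0.830), H372L (0.0311 and -0.60) and H372P (-0.00479 and -0.812). At A376, on the groove side of the helix, the means were -0.0573 ± 0.175 and -0.432 ± 0.212. A376D (-0.0107 and -0.751) was lowest, A376V (-0.00674 and 0.0106) stayed at the wild type, and A376P lowered both assays (-0.772 and -0.757).

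**Figure D3:**
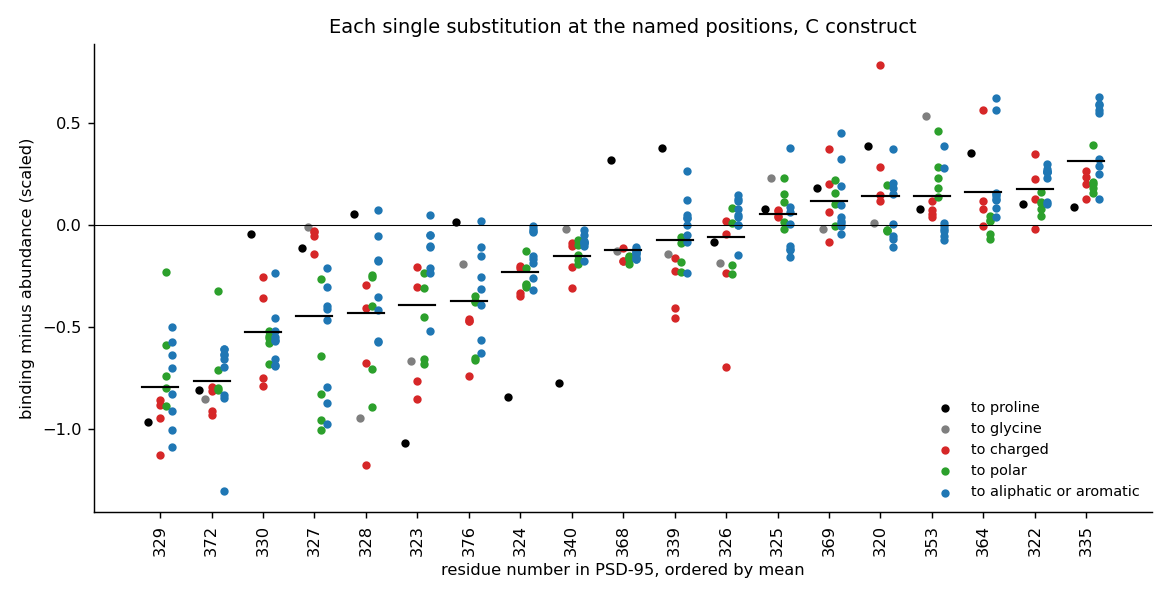
Binding minus abundance (scaled) of each single substitution at the 19 named positions, ordered by the position's mean (black line) and coloured by the kind of new residue. G329 and H372 lie below 0 with every substitution, G335 lies above 0 with every substitution, and at I327, V328 and L323 the substitutions spread over about 1 scaled unit.

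In the carboxylate-binding loop the 4 core residues behaved differently. L323 had a mean abundance of -0.161 ± 0.212 and a mean binding of -0.552 ± 0.381, and 16 of its 19 substitutions were lower in binding. L323P left abundance at -0.103 with a binding of -1.17, L323D at -0.141 with -0.995, while L323W (-0.0696 and -0.0237) and L323M (-0.00647 and -0.0551) were close to the wild type. G324 lowered both assays (-0.524 ± 0.256 and -0.753 ± 0.237), binding more, by -0.228 ± 0.0118 (adjusted p = 1.16e-82, n = 19 substitutions), and G324P was the extreme with -0.163 and -1.0. At F325, which is among the listed peptide-contacting positions, abundance and binding fell together to means of -0.646 ± 0.459 and -0.591 ± 0.397, a difference of 0.0548 ± 0.0122 (adjusted p = 1.0e-05, n = 19 substitutions) that was -0.0224 on the growth rate. F325I and F325Y marked its ends, with -0.0552 and -0.212 for the first and -0.694 and -0.316 for the other. At G322 binding lay above the wild type in most substitutions: its mean abundance was -0.113 ± 0.0818 and its mean binding 0.0620 ± 0.0521, and 11 of 19 substitutions had binding above the wild type past the test. Synonymous variants had a mean binding of 0.0294. G322R had the highest difference there (-0.236 and 0.111) and G322D the lowest (-0.0358 and -0.0554).

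Outside the listed contacts, A347 near the start of helix 1 had the seventh lowest mean and is named after its values were seen. Its means were -0.103 ± 0.0651 in abundance and -0.488 ± 0.272 in binding, and 18 of 19 substitutions were lower in binding. Its substitutions fell into separate ranges: A347T (-0.0246 and 0.0181), A347S (-0.0172 and -0.0419), A347C (-0.0281 and -0.0764), A347G (-0.0502 and -0.0998) and A347V (-0.0428 and -0.144) kept most of the binding. The remaining 14 ran from A347I (-0.0890 and -0.490) to A347W (-0.268 and -0.854). At A375 in helix 2, also named afterwards, A375Y (-0.00555 and -1.19) and A375F (-0.0207 and -0.976) lost binding at wild type abundance, while A375D (-0.931 and -0.987) and A375R (-0.952 and -1.04) lowered both. In strand 3, S339 had a difference of -0.0761 ± 0.00818 (-0.00647 and no longer past the test against the running median), from S339D (0.0566 and -0.398) to S339P (-0.426 and -0.0512). F340 kept its abundance (mean 0.0083 ± 0.0498), with a mean binding of -0.143 ± 0.205, and F340P was its extreme (-0.132 and -0.906) and F340G its mildest (-0.00238 and -0.0227).

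At R368, which lies between strand 4 and helix 2, the split had the other form. Of its 19 substitutions 18 were above the wild type in abundance past the test, with a position mean of 0.138 ± 0.162, and the mean binding was 0.0133 ± 0.0541. R368Q scored 0.194 in abundance and 0.00499 in binding. The difference of -0.125 ± 0.00719 (adjusted p = 8.42e-67, n = 19 substitutions) came with higher abundance and with binding close to the wild type, above it in 12 substitutions, and R368P was the exception with -0.520 and -0.203. The mean binding of 0.0133 was below the 0.0294 of synonymous variants. Set against the running median of binding at the same abundance, the R368 difference turned to 0.0461, and over doubles its median was -0.000437. That running median came mostly from doubles. Above an abundance of 0 their median binding was -0.0609, beside -0.00819 for singles.

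G335, in the turn between strands 2 and 3, had the highest difference at 0.313 ± 0.00926. Its mean abundance was -0.426 ± 0.335 and its mean binding -0.113 ± 0.196, and 7 of 19 substitutions were above the wild type in binding while 18 were below it in abundance. G335W (-1.0 and -0.374), G335Y (-0.793 and -0.20), G335L (-0.824 and -0.237) and G335F (-0.727 and -0.167) are among the 10 highest single differences, whereas G335P (-0.0329 and 0.0524) and G335A (-0.0826 and 0.0432) lay nearer to the wild type in abundance. G364, before helix 2, had a mean difference of 0.162 ± 0.0116 with G364V (-0.782 and -0.162) and G364I (-0.787 and -0.223) at the high end and G364N (0.0233 and -0.0453) at the low end. G364D was different in kind, with abundance 0.0748 and binding 0.639, the highest binding of all singles, but the 32 doubles that contain it had a median binding of -0.0468. V362G (-0.931 and -0.285), V362Q (-1.11 and -0.533) and L360G (-0.818 and -0.260) complete the 10 highest.

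The other positions of the high end were L353, S320 and N369. L353 had means of -0.554 ± 0.502 and -0.413 ± 0.428, a difference of 0.140 ± 0.0105 that was -0.00162 on the growth rate. Aliphatic residues were accepted there, as in L353M (0.0534 and -0.0190), and L353G (-0.895 and -0.363) was highest. N369 had a difference of 0.118 ± 0.0190 (adjusted p = 7.47e-10, n = 19 substitutions), from N369E (0.113 and 0.0298) to N369I (-0.148 and 0.301). S320 had 0.140 ± 0.0518 (adjusted p = 0.00848, n = 18 substitutions), but none of its 18 single substitutions passed on its own, and S320E (-0.775 and 0.00566) had an error of 0.424. With errors multiplied by 2, or with the median over substitutions (0.132), the call at S320 was lost.

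The kind of new residue went with different differences at different positions, as a description with no test. At I327 the 8 aliphatic or aromatic residues had a mean difference of -0.553 and the 4 charged residues -0.0647, with mean abundance at -0.0256 and -0.945. At A375 the differences were -0.542 and -0.0607, with mean abundance at -0.0498 and -0.902. Charged residues at A375 were thus low in both assays (mean binding -0.963), as they were at I327 (-1.01). At V328 the differences were -0.28 and -0.637, with mean abundance near the wild type for both kinds (-0.0244 and -0.0412). Over the 13 positions chosen for means below -0.2, where these different patterns are pooled, the mean difference was -0.397 ± 0.298 for aliphatic or aromatic residues (SD, n = 109), -0.428 ± 0.349 for charged residues (n = 50), -0.403 ± 0.272 for polar residues (n = 64), -0.355 ± 0.342 for glycine (n = 10) and -0.409 ± 0.429 for proline (n = 13). In single assays substitutions to proline had a mean abundance of -0.420 and a mean binding of -0.512 over 60 positions, beside -0.123 and -0.184 for aliphatic or aromatic residues.

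Double substitutions gave a second reading of the same positions, in which each double counts for both of its positions. They lie in 142 pairs of positions, 139 of them with at least 23 doubles each. Of the 61 positions 49 had the same sign in the mean of singles and in the median of doubles, with a Pearson correlation of 0.824 and a Spearman correlation of 0.694 across positions that share libraries and scale. H372 and G329 were lowest here too, with a median of -0.620 over 2159 doubles and of -0.599 over 930. At H372 1374 doubles had lower binding than abundance past the test and 6 higher. V328 followed at -0.467 over 976 doubles, with -0.792 for its doubles with G329, -0.297 with F337 and -0.253 with S339. G330 was at -0.314 over 1944, and N369 was highest at 0.287 over 558. I327 and L323 came closer to 0 in doubles (-0.0840 and -0.0330), where median abundance had already dropped to -0.923 and -0.768. G322 and S320 turned in doubles, to -0.0701 and -0.171, and both were tied to 1 partner: all but 1 of the G322 doubles carry a substitution of L323, and all 226 S320 doubles carry 1 of A376.

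**Figure D4:**
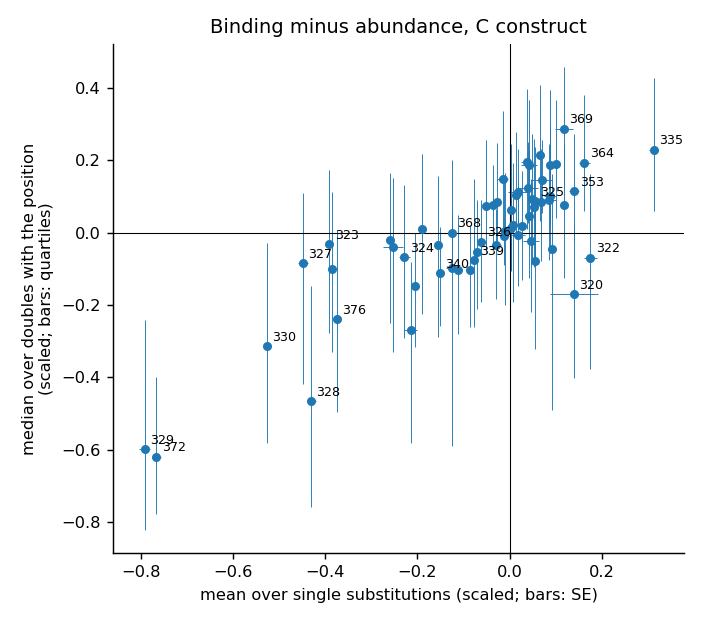
Median binding minus abundance over the double substitutions that contain a position (vertical, with quartiles) against the mean over its single substitutions (horizontal, with SE) for 61 positions of the C construct, with the named positions numbered. G329 and H372 lie lowest on both axes, and S320 and G322 lie right of 0 and below 0.

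In doubles with G329, H372, I327 or V328 the median binding was low at each level of abundance. These sets overlap, since 360 doubles join V328 with G329, 306 join I327 with H372 and 212 join G329 with H372. Doubles with G329 and an abundance above -0.2 had a median binding of -0.935 (405 doubles), and those between -0.8 and -0.4 in abundance had -0.956 (163 doubles). For H372 these were -0.815 (1152 doubles) and -0.948 (330 doubles), for I327 -0.870 (469 doubles) and -0.961 (462 doubles), and for V328 -0.887 (402 doubles) and -0.904 (186 doubles). L323 doubles varied with abundance, at -0.419 and -0.797, and at -0.986 below -0.8. G335 doubles had a median binding of -0.564 over all 1314 and of -0.819 over the 738 with abundance below -0.8. With abundance between -0.8 and -0.4 their median was -0.314, beside -0.735 for all doubles from -0.8 to -0.6 and -0.497 from -0.6 to -0.4.

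The pairs of positions with the lowest medians were V328 with G329 (-0.792, abundance -0.122 and binding -0.974 over 360 doubles), H372 with E373 (-0.70) and I327 with H372 (-0.680, 306 doubles). The highest were G335 with Q358 (0.401, abundance -0.953 and binding -0.382 over 302 doubles), D366 with N369 (0.333) and I314 with D366 (0.332, 154 doubles). Among single doubles with an error below 0.1, the 6 lowest were H372P/E373T (0.102 and -1.02, difference -1.12 ± 0.10), S371R/H372K (-1.09), I327T/I336V (-1.09), V328Q/G329L (-1.09), V328T/G329V (-1.06) and V328T/G329M (-1.06). Each holds a substitution of H372, I327 or G329. The 6 highest were G335W/L342R (-1.08 and -0.221, difference 0.861 ± 0.0963), T321V/L353G (0.838), L353P/R354S (0.833), D366R/N369R (0.817), G335R/Q358L (0.817) and Q358T/L360R (0.802). In the last, each substitution alone was close to the wild type in both assays (Q358T -0.132 and -0.0116, L360R -0.0506 and -0.0237), and the double had an abundance of -1.09 with a binding of -0.285. L353P alone scored -0.0993 and -0.0217. The 227 doubles that contain it had medians of -0.835 in abundance and -0.762 in binding, low in both assays.

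Over all doubles 14.5% had lower binding than abundance past the test and 8.19% higher, and these shares varied with the calls of the singles. Where both singles had lower binding than abundance, 42.7% of 7480 doubles were lower and the median difference was -0.311. With 1 lower single and 1 not called the median was -0.0755 (18.9% of 11608 lower), with neither called 0.0722 (1.66% of 5773 lower), and with both higher 0.191 (18.8% of 2870 higher). With 1 higher single and 1 not called the median was 0.179 (19.9% of 7496 higher), and with 1 lower and 1 higher 0.0587 (9.64% of 9297 lower and 9.76% higher). For 25288 doubles the sum of the singles lay above -0.8 in both assays, and there the double was set against that sum. The difference was lower than the sum in 298 doubles (1.18%) and higher in 1900 (7.51%), with a median departure of 0.0887. In abundance alone the doubles lay a median of -0.134 from the sum, and in binding -0.0426.

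The same difference was compared between C and each other construct over 60 positions. Against PDZ3, C had a lower difference at 11 positions (18.3%) and a higher one at 15 (25.0%), against N at 11 (18.3%) and 20 (33.3%), and against NC at 15 (25.0%) and 20 (33.3%). These comparisons share the C values. The splits moved with the scale: on the deposited score 3 positions were lower and 40 higher against PDZ3 and 4 and 43 against N, and with nonsense variants from G345 on as the scale 9 and 22 against PDZ3 and 8 and 23 against N. Centred on synonymous variants they were 19 and 16 against PDZ3, 23 and 14 against N, and 25 and 16 against NC. Among positions with means below -0.2, 11 of the 13 in C and of the 15 in PDZ3 were shared, 12 of the 13 and of the 16 in N, and 11 of the 13 and of the 12 in NC. The wild types of the constructs grew at different rates, so each value is relative to its own construct.

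**Figure D5:**
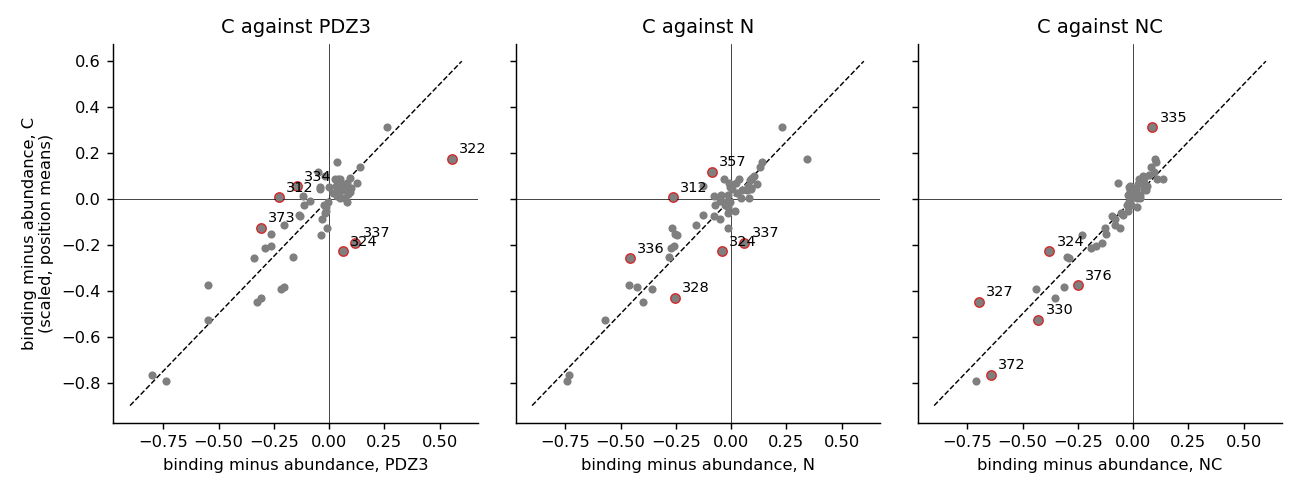
Position means of binding minus abundance (scaled) in C against PDZ3, N and NC over 60 positions, with the 3 lowest and 3 highest contrasts in red and the dashed line at equality. F337 lies below 0 in C and NC and above 0 in PDZ3 and N, and R312 lies near 0 in C and NC and below -0.2 in PDZ3 and N.

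F337, in strand 3, was lower in C than in PDZ3 and N. In C its means were -0.330 in abundance and -0.519 in binding, a difference of -0.190, whereas PDZ3 had -0.331 and -0.213 (difference 0.119) and N -0.145 and -0.0860 (0.0591). C minus PDZ3 was -0.309 ± 0.0309 (adjusted p = 1.21e-21, n = 19 substitutions) and C minus N -0.249 ± 0.0179 (adjusted p = 2.30e-42). NC was nearer to C at F337, with -0.136 and -0.277 (difference -0.141). Within C, F337R (-0.103 and -0.558) and F337V (-0.20 and -0.609) lost more binding than abundance, while F337W (0.00520 and -0.0860) and F337Y (-0.00862 and -0.00915) did not lose much of either. R312, at the start of the block, went the other way: its difference was 0.00825 in C, -0.226 in PDZ3 and -0.264 in N, with C minus PDZ3 at 0.234 ± 0.0418 and C minus N at 0.272 ± 0.0252. Its substitutions in C were milder in both assays (-0.234 and -0.226) than in PDZ3 (-0.617 and -0.843) and N (-0.440 and -0.704). In NC the R312 difference was also near 0, at -0.00812 (-0.103 and -0.111). There the contrast with C, 0.0164 ± 0.0088, did not pass the test. G322 had a difference of 0.175 in C and 0.554 in PDZ3, with like binding (0.0620 and 0.0688) and an abundance of -0.113 in C and -0.485 in PDZ3.

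G324 was lower in C than in PDZ3 by -0.291 ± 0.0547 and than in N by -0.186 ± 0.0419. In PDZ3 and N both its assays lay near the nonsense level (-1.03 and -0.972 in PDZ3, -0.905 and -0.947 in N), and on the deposited score without scaling both contrasts reversed to 0.0861 and 0.398. Against NC, G324 was higher in C by 0.151 ± 0.0147. Also against NC, I327 was higher by 0.251 ± 0.0142 and G335 by 0.226 ± 0.0117: in NC the abundance of I327 substitutions was -0.0727 beside -0.369 in C, with binding at -0.771 and -0.817, and that of G335 was -0.0825 beside -0.426. A376, H372 and G330 were lower in C than in NC by -0.124 ± 0.00977, -0.123 ± 0.0128 and -0.0967 ± 0.0107. Abundance at H372 was alike in both (-0.00118 in C and -0.00945 in NC) and binding was -0.767 in C and -0.653 in NC. The remaining named contrasts were E373 (0.183 ± 0.0380) and E334 (0.203 ± 0.0313) against PDZ3, and V328 (-0.177 ± 0.0188), I336 (0.198 ± 0.0241) and D357 (0.204 ± 0.0314) against N. With errors multiplied by 2 the calls at R312, G324 and E373 against PDZ3 and at G324 against N were lost, and on the deposited score V328 against N no longer passed (-0.0457). The sizes also depend on the scale: in units of the deposited score, R312 was 0.603 against PDZ3 and 0.685 against N, E373 0.394 and E334 0.315 against PDZ3, and I336 0.619 and D357 0.687 against N. Against NC these were -0.278 at H372, -0.194 at G330, -0.191 at A376 and 0.156 at I327.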

How the data were processed

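The authors deposited, per amino acid sequence, construct and assay, a fitness score with its error, and growth rates that follow this score in a straight line; the cultures are merged. The log base is not stated. Cutadapt and FastQC are named without versions, per the submitters' processing notes. No source used here names the tool that made the scores. The libraries are described as biological replicates, but p-values here rest on the authors' errors. Of the sequences, 66 letters were read as residues and the last 2 were not. The 8 wild type entries with a placeholder error of 100 were left out of the variants. Where a set had no single other wild type entry, the placeholder entry's score served as its zero. Its error then came from the growth rate error of that entry. The NC wild type score was 0 in both assays, while that of C was -0.00178 in abundance and 0.0114 in binding.

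Scores were scaled (wild type 0, median nonsense variant -1), with the errors of both added. Tests were two-sided normal tests with Benjamini-Hochberg adjustment at 0.05, over variants or over positions with at least 10 substitutions. The procedure was tested on simulated data. Python 3.11.15, numpy 2.4.6, pandas 2.3.3, scipy 1.17.1 and matplotlib 3.10.9 were used. The members, lists and alternatives were chosen with earlier results of these data known. The rule for names took the 6 lowest and 6 highest positions past the test and 12 positions of known interest (G322, L323, G324, F325, N326, I327, G329, S339, F340, R368, H372 and A376), the 10 lowest and 10 highest singles and the 6 lowest and 6 highest doubles with an error under 0.1, and the 3 lowest and 3 highest positions between constructs. Other substitutions at these positions illustrate them and were chosen after their values were seen.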

Additional observations from a re-analysis of the deposited data

Results flagged for a closer look

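These positions differed between C and another construct in binding minus abundance, by a test of the difference itself. Against PDZ3 the lowest were G322 (-0.379), F337 (-0.309) and G324 (-0.291) and the highest R312 (0.234), E334 (0.203) and E373 (0.183). Against N they were F337 (-0.249), G324 (-0.186) and V328 (-0.177), and R312 (0.272), D357 (0.204) and I336 (0.198). Against NC they were A376 (-0.124), H372 (-0.123) and G330 (-0.0967), and I327 (0.251), G335 (0.226) and G324 (0.151). All are in scaled units, and the comparisons share the C values.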

How the results depend on the processing

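The calls rest on the authors' errors, and each count is relative to the scale. With errors multiplied by 2, the variants with lower and higher binding than abundance numbered 2180 and 428, the singles with higher binding 130, the variants above the wild type in binding 102, and those below and above it in abundance 15628 and 32. Doubles below and above the sum of singles then numbered 1 and 21, and positions lower and higher in C numbered 2 and 1 (against PDZ3), 4 and 7 (N), and 6 and 8 (NC). On the deposited score, not scaled, these were 3 and 40 against PDZ3 and 4 and 43 against N, and G324 reversed against PDZ3 (0.0861) and N (0.398). On the growth rate, 12015 variants were lower, 2477 higher and 14 positions higher, and F325 (-0.0224) and L353 (-0.00162) reversed. Centred on synonymous variants, 166 variants lay above the wild type in binding and 19, 23 and 25 positions were lower in C than in PDZ3, N and NC. Set against the running median of binding at the same abundance, 523 singles and 41 positions were higher, and N326 (0.0327) and R368 (0.0461) reversed. This running median came mostly from doubles, whose median binding lay below that of singles in each bin of abundance above -1. N326 was also at 0.000756 as a median over substitutions. In doubles S320 (-0.171) and G322 (-0.0701) reversed. With sums above -0.5, 179 doubles lay below the sum. Of the other values, 66 counts moved by less than 1.5 times, and 382 of 400 values of named positions, substitutions and contrasts kept their direction and side of the threshold, with 9 reversed and 9 no longer past it. The cause of these shifts was not tested. No paired analysis was possible because values per culture are not in the table, and leaving out single cultures could not be run. The read depth is unknown.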
